A study of Mus musculus with 8 samples.

Results

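The synaptic vesicle release machinery was followed here through 69 mouse genes, out of 18939 genes in the count table, chosen by name alone: every gene listed as a numbered Syt, Stx, Stxbp, Vamp, Snap, Cplx or Rims gene, as Unc13a to Unc13d, as Sv2a to Sv2c or as Syn1 to Syn3. The naming rule uses no measured value, although it was set with earlier results of these data known. The 69 genes were listed on 98 RefSeq transcripts, 18 of them on more than 1, and the transcript with the most counts stood for its gene. All 69 were placed on GRCm38, and 15 shared exon sequence with another gene on the opposite strand.

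The study purified ribosome-bound RNA from neurons that express the mu-opioid receptor (MOR) and asked what chronic oral morphine changed in them. Mice of the genotype OPRM1cre X EGFP-L10a on a C57Bl/6J background, aged 8 to 12 weeks at the start, drank water with 0.2% saccharin alone (control, 4 libraries) or with morphine at up to 0.5 mg/ml in 0.2% saccharin for 11 days (4 libraries). Each group held 2 libraries labelled male (control replicates 1 and 2, morphine replicates 3 and 4) and 2 labelled female (control replicates 5 and 6, morphine replicates 7 and 8), and each library pooled the dissections of 2 mice of a sex. In translating ribosome affinity purification (TRAP) the tagged ribosomal protein EGFP-L10a is pulled down with its RNA, and here Cre under control of the Oprm1 gene decided which cells carried the tag. The dissection was a gross one aimed at the paraventricular nucleus of the thalamus (PVT), so tagged cells of neighbouring tissue could enter a library. Mice of both groups carried both alleles and drank saccharin.

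At a presynaptic terminal, transmitter is stored in vesicles that dock at the active zone and fuse with the plasma membrane when calcium enters. Fusion is driven by a SNARE complex of synaptobrevin (Vamp genes) on the vesicle with syntaxin (Stx genes) and SNAP-25 on the plasma membrane, and prepared by Munc13 (Unc13 genes) and RIM (Rims genes). Complexin (Cplx genes) binds the assembled complex and synaptotagmin (Syt genes) senses calcium, while synapsins (Syn genes) tether vesicles in the reserve pool. Many other members of these families serve traffic between other membranes of the cell. PVT projection neurons are mainly glutamatergic and release transmitter at terminals outside the thalamus, whereas the RNA measured here was bound to ribosomes in the dissected tissue.

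A control library held 37081348 to 43311793 counts and a morphine library 31151103 to 47582947, and the 69 genes took 2.00% to 2.18% of each library. Thalamic markers were present in every library: Tcf7l2, a transcription factor of thalamic neurons, was at 686 to 1359 CPM (counts scaled to a common library size) and Oprm1 at 14.0 to 32.3 CPM. Of 10 markers of the midline thalamus 9 were lower in the morphine group, with a median log2 fold change of -0.28, none of them called by edgeR (3 at an unadjusted threshold of 0.05) or DESeq2, and with sums of 3076 to 4055 CPM in control and 2318 to 3794 CPM in morphine libraries. The 3 under the unadjusted threshold were Gbx2 with a log2 fold change of -0.69, Necab1 with -0.67 and Oprm1 with -0.62. Slc17a6 at -0.02 and Prkcd at -0.06 were close to equal. Drd2, the 1 marker that was higher, had a log2 fold change of 0.87. The summed level of 7 microglial markers was at most 6.12 CPM, and that of 6 endothelial markers at most 6.10 CPM. The 8 inhibitory neuron markers summed to 1213 to 1616 CPM in control and 947 to 1448 CPM in morphine libraries. Among them Gad1 was at 338 to 647 CPM and Gad2 at 362 to 705 CPM, against 215 to 350 CPM for Slc17a6. The 8 astrocyte markers summed to 536 to 646 CPM in control and 472 to 676 CPM in morphine libraries, most of it from Slc1a2 and Aldoc. Markers of telencephalic pyramidal neurons were higher in the morphine group for 13 of 13 genes, 1 of them called by edgeR (9 at an unadjusted threshold of 0.05) and 5 by DESeq2, with sums of 1302 to 1965 CPM in control and 1870 to 3709 CPM in morphine libraries. Markers of the choroid plexus, the epithelium that makes cerebrospinal fluid, were higher for 12 of 13 genes, none of them called by edgeR (10 at an unadjusted threshold of 0.05) and 7 by DESeq2, with sums of 44.8 to 162 CPM and 217 to 681 CPM. Of the markers in both lists, Kcnj13 alone was at 0 in a library, control replicate 1. Oligodendrocyte markers were higher with morphine for 8 of 8 genes, with a median log2 fold change of 0.65, and 0 passed the adjusted or the unadjusted threshold in edgeR or were called by DESeq2. Over all genes, 12.1% passed the unadjusted threshold in edgeR, and 0.195% were called by edgeR and 2.65% by DESeq2. Kdm5d, Eif2s3y, Uty and Ddx3y, which lie on the Y chromosome, reached 28.7% to 35.8% of the male mean in control replicate 5, which is labelled female. In bulk RNA of this kind, fewer cells of a type and less RNA per cell cannot be told apart.

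Levels between genes were compared per kilobase of transcript. In the control group Snap25 was the highest of the release genes at 1703 ± 206 CPM per kb (SD, n = 4), followed by Vamp2 at 1316 ± 20.4 and Cplx1 at 966 ± 191 CPM per kb. These 3 genes encode the plasma membrane SNARE SNAP-25, the vesicle SNARE synaptobrevin 2 and complexin 1. They kept these places when the longest annotated transcript set the length. The control libraries of Vamp2 and Cplx1 did not overlap, and neither did those of Snap25 and Vamp2. Further down the order depended on the length used: Rims3, whose matched transcript is 0.977 kb and whose longest is 6.50 kb, stood at place 5 with the first and at place 19 with the second.

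At the other end, Cplx4, Stx11, Stx19, Syt8, Unc13d and Vamp5 had a mean under 20 counts in a library. Syt8 had 1 count in morphine replicate 8 and Stx19 had 1 count in morphine replicate 4, and both were at 0 in the 7 other libraries. Cplx4, a complexin of the retina, had 0 to 6 counts in any library. These 6 genes were left out of the counts below that ask for a mean of 20 counts, which the other 63 genes reached.

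**Figure D1:**
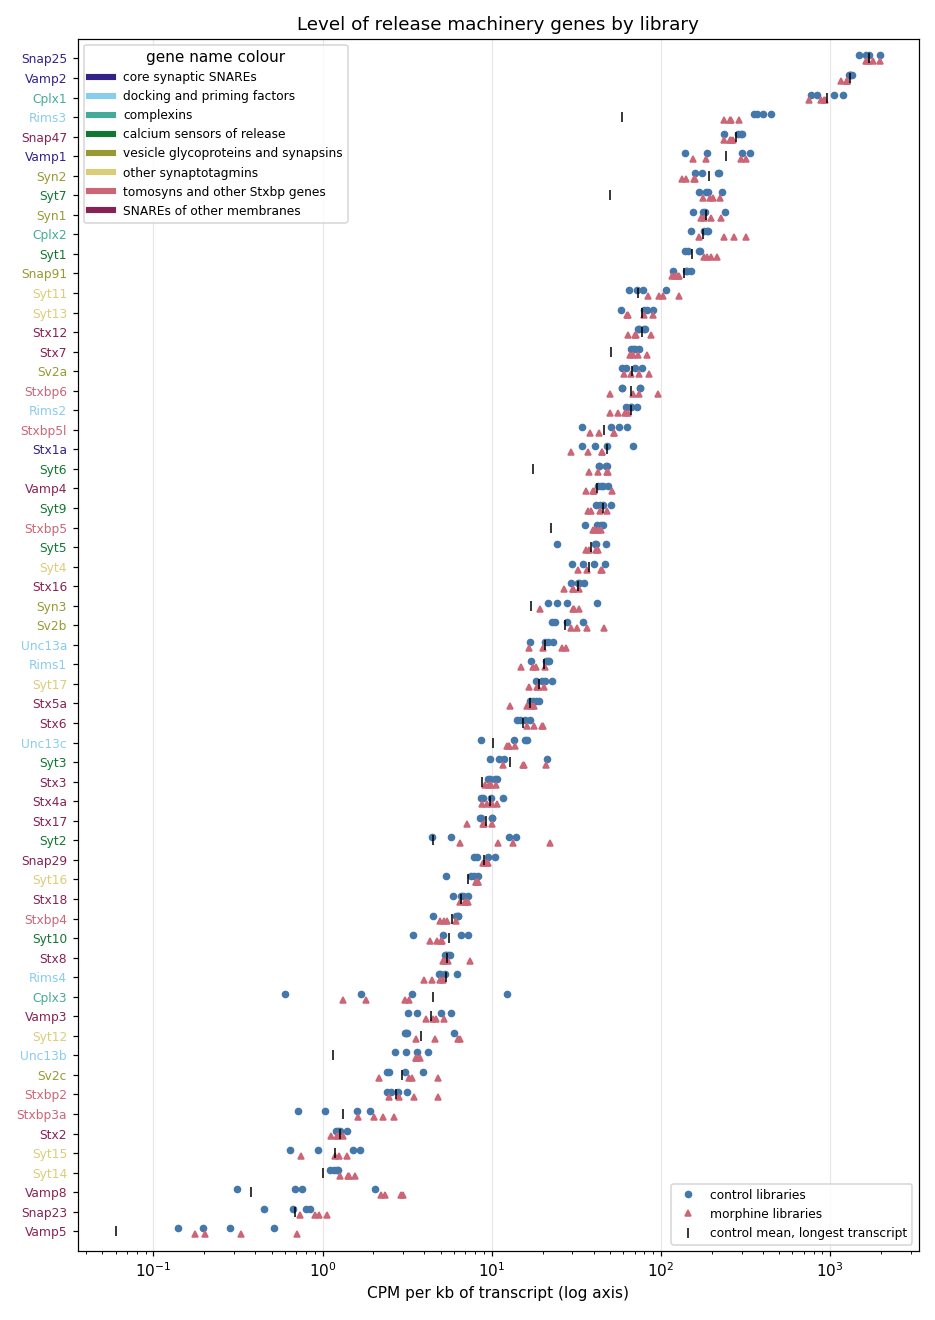
CPM per kb of transcript (log axis) for 61 of the release genes with a control mean above 0.1 CPM per kb (2 others are not reported singly), from the highest at the top to the lowest, with 1 point for each of the 4 control and 4 morphine libraries. The black mark is the control mean when the longest annotated transcript sets the length, and gene names are coloured by role. Snap25, Vamp2 and Cplx1 lead the list, Rims3 shows the largest gap between both lengths, and the points of both groups lie close together in most rows.

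Paralogs that share a step were compared by their shares of RNA per kilobase. Of Vamp1 and Vamp2, the vesicle SNAREs, Vamp1 held 9.37% to 21.4% of the sum over the 8 libraries. Of Cplx1 and Cplx2, the complexins of most central synapses, Cplx2 held 15.7% ± 2.18 in control and 21.9% ± 3.26 in morphine libraries (SD, n = 4 each), and the groups overlapped. Of Syt1, Syt2 and Syt9, the fast calcium sensors, Syt1 held 71.9% to 80.6%. Of Sv2a, Sv2b and Sv2c, glycoproteins of the vesicle membrane, Sv2a held 59.2% to 71.0%. Syn1 and Syn2 shared the synapsin RNA, with 41.9% to 56.5% for Syn1 and 35.3% to 52.3% for Syn2.

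Morphine and control libraries were then compared gene by gene to ask whether chronic morphine altered the release machinery. None of the 69 genes passed the adjusted threshold of 0.05 in the edgeR quasi-likelihood test with Benjamini-Hochberg adjustment over all genes, where 37 of 18939 genes (0.195%) were called. At an unadjusted threshold of 0.05, 9 of 69 genes passed, against 12.1% of all genes. Among genes with a mean of 20 counts it was 9 of 63, or 14.3%, against 14.4% of all such genes. Both shares were near the background. Of the 9 genes, 7 were higher with morphine (Cplx2, Stx6, Stxbp3a, Sv2b, Syt1, Syt14 and Vamp8; background 6.79%) and 2 were lower (Rims3 and Syn2; background 5.31%). The alternative tool DESeq2 called 502 genes (2.65%), and 2 of the 69, Rims3 and Vamp8. With sex in the edgeR model 110 genes (0.581%) were called, and 1 of the 69, Rims3. The median log2 fold change of the 69 genes was 0.00, with 35 above and 34 below 0, and that of all genes was 0.01, with 51.4% above 0.

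For most of the genes a large change was outside the interval of the estimate. The 95% interval of the log2 fold change lay within 0.5 of 0 in either direction, a 1.41-fold difference, for 42 of 63 genes (66.7%; 54.1% of all genes with a mean of 20 counts), and within 1 of 0 for 59 of 63. The median standard error was 0.13, and the median coefficient of variation within groups 13.3%, against 0.14 and 13.7% over all such genes. In 3 of the 69 genes every morphine library was above every control library (Syt1, Syt14 and Vamp8; 3.34% of all genes), and in 3 every morphine library was below (Rims3, Syn2 and Vamp2; 3.21% of all genes).

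**Figure D2:**
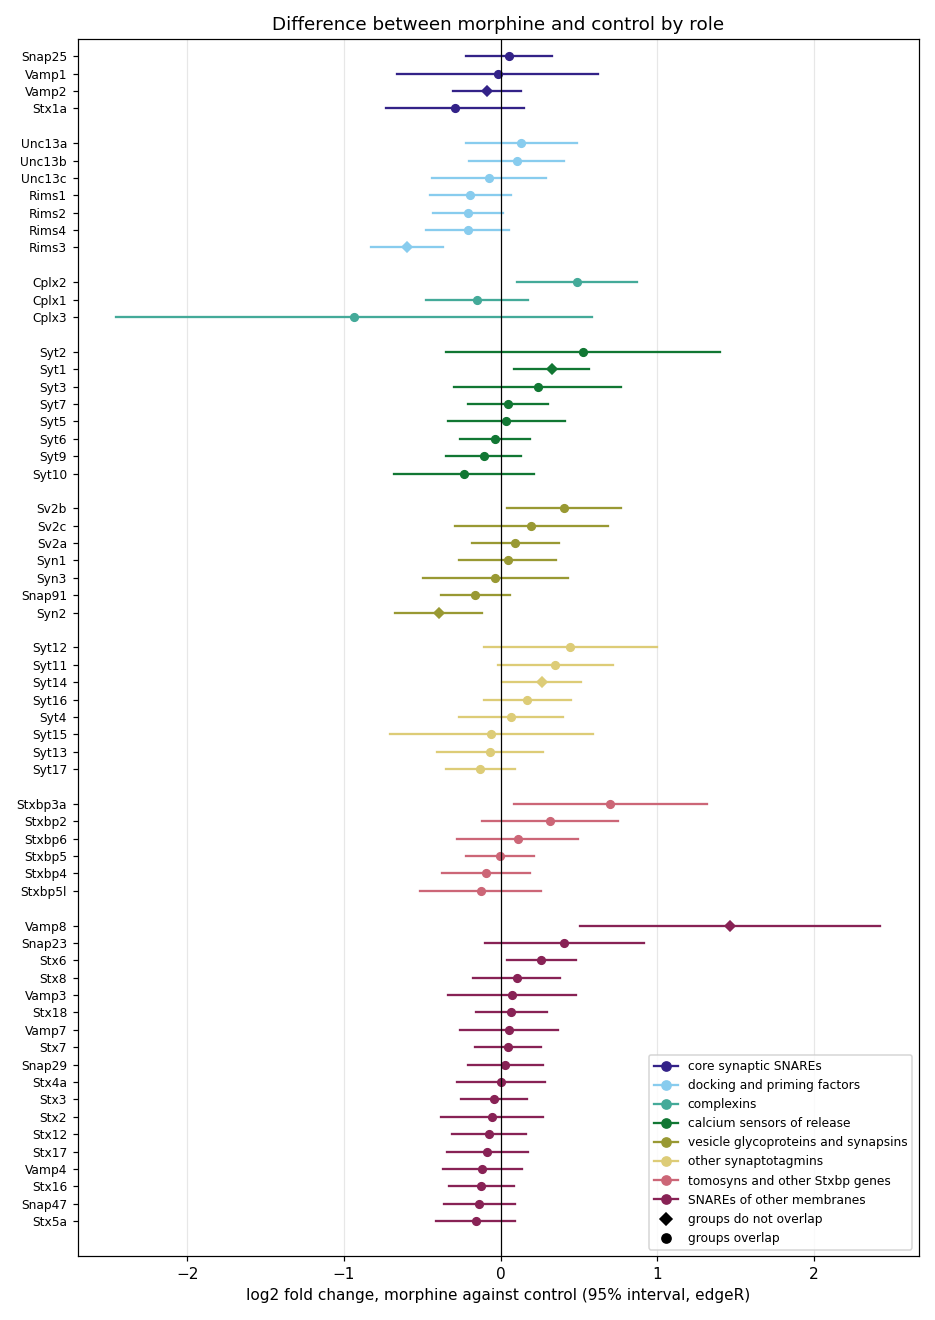
Log2 fold change of morphine against control libraries (x axis) with its 95% interval from edgeR for 61 of the 63 release genes with a mean of at least 20 counts (the other 2 are not reported singly), grouped and coloured by role (n = 4 libraries a group). Diamonds mark the 6 genes whose groups did not overlap. Most intervals cross 0, Rims3 lies lowest among the docking and priming factors, and the widest intervals belong to Cplx3, Vamp8 and Syt2.

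Among the 5 core synaptic SNAREs, 0 passed the unadjusted threshold in edgeR (12.1% of all genes), and DESeq2 called 0 (2.65% of all genes). Snap25 was at 3474, 3586, 4196 and 3156 CPM in control replicates 1, 2, 5 and 6 and at 4173, 3527, 3446 and 3812 CPM in morphine replicates 3, 4, 7 and 8, a log2 fold change of 0.05 (95% interval -0.22 to 0.33), or 0.31 with the telencephalic and 0.15 with the choroid plexus score. The highest library was a control and the next a morphine library, and the groups overlapped over nearly their whole range. Vamp2 was at 2908, 2880, 2856 and 2960 CPM in control and at 2786, 2780, 2796 and 2564 CPM in morphine libraries. All 4 morphine libraries were below all control libraries, by a log2 fold change of -0.09 (95% interval -0.31 to 0.13; adjusted P = 0.743), and Vamp2 had the smallest variation within groups of the 63 genes, 3.02%. Stx1a, a plasma membrane syntaxin, had a log2 fold change of -0.29 (95% interval -0.73 to 0.15). It was -0.093 without control replicate 6, and models with the telencephalic and the choroid plexus score gave -0.98 and -0.59.

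Vamp1, the synaptobrevin prominent in brainstem and spinal cord, differed between libraries more than between groups. It was at 566, 905, 1019 and 418 CPM in control and at 895, 556, 466 and 954 CPM in morphine libraries, a log2 fold change of -0.02 (95% interval -0.66 to 0.62). Control replicates 2 and 5 and morphine replicates 3 and 8 were the 4 high libraries. Syt2, the calcium sensor of many fast synapses of the hindbrain and of inhibitory neurons, was at 19.4, 46.9, 43.1 and 15.1 CPM in control and at 45.1, 36.9, 22.1 and 75.2 CPM in morphine libraries. The 4 libraries that were highest for Vamp1 were also the 4 highest for Syt2 and for Snap25, 2 of them in each group, and the log2 fold change of Syt2 was 0.53 (95% interval -0.35 to 1.40). For Syt2 it was 0.16 without morphine replicate 8, 1.44 with the telencephalic score in the model and -0.17 with the choroid plexus score, and for Vamp1 0.87 and -0.077 with these scores.

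The 8 docking and priming factors held the largest separation, in Rims3. Rims3 (chromosome 4, 120854779 to 120896580 on GRCm38) encodes a short RIM protein that keeps only the last C2 domain of the long RIM scaffolds. It was at 441, 362, 348 and 392 CPM in control and at 250, 255, 283 and 231 CPM in morphine libraries. Every morphine library was below every control library, in the libraries of both sexes, with means of 386 ± 40.9 and 255 ± 21.5 CPM (SD, n = 4 each). The log2 fold change was -0.60 (SE 0.11, 95% interval -0.83 to -0.36), which is 0.661 of the control level, and the adjusted P value in edgeR was 0.0569, just outside the threshold. DESeq2 gave an adjusted P of 5.48e-05 and edgeR with sex in the model 0.0423, within a range of 5.48e-05 to 1 over the alternatives. Leaving out any 1 library gave -0.67 to -0.54 and no call in the 8 fits. A model with a score of the telencephalic markers gave -0.61 and one with a score of the choroid plexus markers -0.42, with adjusted P values of 0.724 and 1.

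The other 3 Rims genes were also lower with morphine, without passing the unadjusted threshold. Rims1 and Rims2, the long RIM scaffolds that tie calcium channels and vesicles together, had log2 fold changes of -0.19 (95% interval -0.45 to 0.07) and -0.21 (-0.43 to 0.02), and Rims4, another short form, of -0.21 (-0.48 to 0.06). With the telencephalic score these values were -0.34, -0.099 and -0.56 for Rims1, Rims2 and Rims4, and with the choroid plexus score -0.13, 0.0048 and -0.42. Summed over the 4 genes, the level was 796 to 953 CPM in control and 607 to 736 CPM in morphine libraries, and the groups did not overlap. Rims3 makes up a large part of that sum, and of the RNA per kilobase of the 4 genes it held 79.2% to 82.0% in control and 75.5% to 76.9% in morphine libraries. With the longest transcripts its mean share was 39.0% and 32.8%. Rims1 in control replicate 2 stood apart, at 111 CPM against 136 to 140 CPM in the 3 other control libraries.

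Unc13a, the main Munc13 of excitatory synapses, had a log2 fold change of 0.13 (-0.22 to 0.49), or -0.10 with the telencephalic and 0.26 with the choroid plexus score, and its exons overlap those of Colgalt1 on the opposite strand, where the counting is not stated to use the strand.

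**Figure D3:**
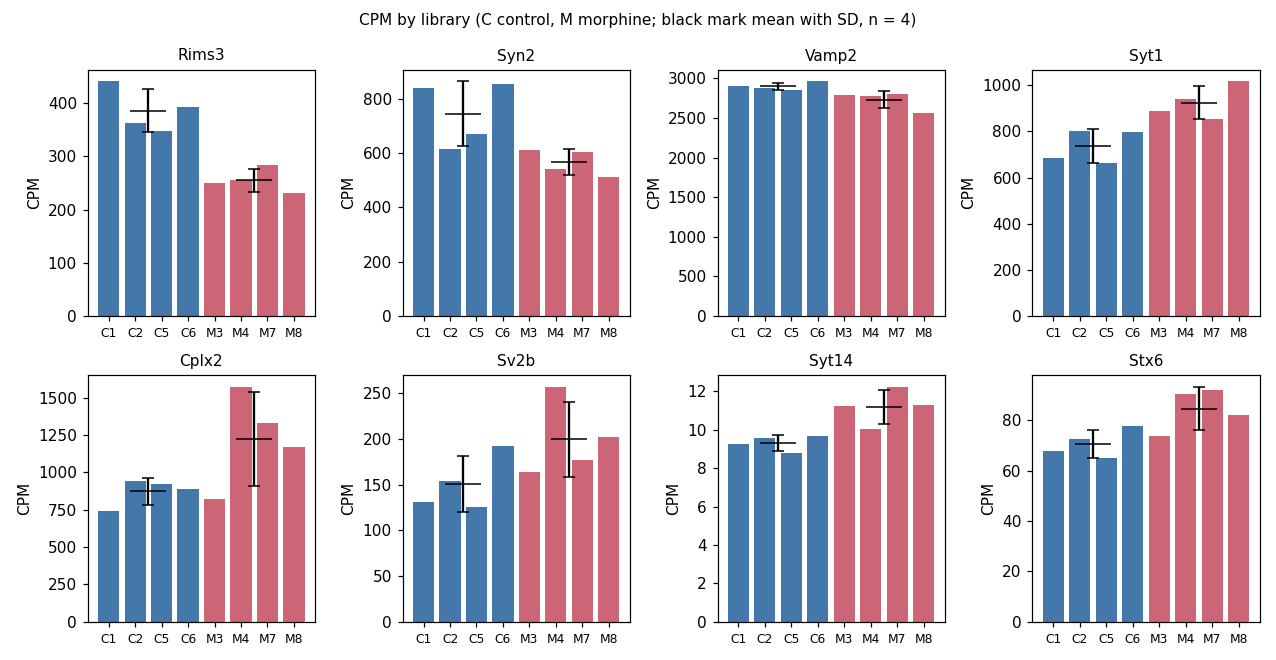
CPM per library of 8 release genes (bars from 0, each panel with its own scale; C, control and M, morphine replicates), with the mean and SD of each group (n = 4) in black. Rims3, Syn2 and Vamp2 were lower and Syt1 and Syt14 higher in every morphine library than in any control library, by very different distances, while the groups of Cplx2, Sv2b and Stx6 overlapped.

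Of the complexins, Cplx1 and Cplx2 had estimates of opposite sign, and the difference between them was not tested. Cplx1 was at 1842, 2322, 2597 and 1699 CPM in control and at 1639, 2028, 1926 and 2032 CPM in morphine libraries, a log2 fold change of -0.15 (95% interval -0.48 to 0.18), which the telencephalic score brought to -0.00089 and the choroid plexus score to -0.18. Leaving out any 1 library gave Cplx1 -0.26 to -0.051. Cplx2 was at 745, 940, 925 and 886 CPM in control and at 823, 1570, 1332 and 1169 CPM in morphine libraries. Morphine replicates 4, 7 and 8 were above every control library and morphine replicate 3 was among them, with a log2 fold change of 0.49 (95% interval 0.10 to 0.87; adjusted P = 0.297 in edgeR). The telencephalic markers followed the same order within the morphine group, with sums of 1870 CPM in morphine replicate 3 and 3709, 3329 and 2952 CPM in morphine replicates 4, 7 and 8. In control they did not, with sums of 1302, 1431, 1388 and 1965 CPM in replicates 1, 2, 5 and 6. A model with their score gave Cplx2 a log2 fold change of 0.095 and one with the choroid plexus score 0.26. The part of these markers in the result was not tested. Cplx3, singled out after its values were seen, was at 1.72, 4.79, 9.71 and 35.2 CPM in control and at 3.79, 8.75, 9.22 and 5.14 CPM in morphine libraries, a 20.5-fold range. Control replicate 6, its highest library, was also highest for Tbr1, a cortical transcription factor, at 67.8 CPM.

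Of the 8 calcium sensors of release, Syt1 had the clearest separation. Syt1 (chromosome 10, 108497650 to 109010980) encodes the main sensor of fast release in the forebrain. It was at 684, 804, 662 and 800 CPM in control and at 887, 942, 854 and 1017 CPM in morphine libraries. Every morphine library was above every control library, and the log2 fold change was 0.33 (95% interval 0.09 to 0.56; adjusted P = 0.256 in edgeR), or 1.25-fold. A model with the telencephalic score gave 0.17 and one with the choroid plexus score 0.085. Syt7, a slow sensor of asynchronous release, was close to equal, with a log2 fold change of 0.05 (95% interval -0.21 to 0.31), and the same comparison for Syt9 gave -0.11 (-0.35 to 0.13).

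Among the 7 vesicle glycoproteins and synapsins, Syn2 and Sv2b passed the unadjusted threshold, in opposite directions, where 12.1% of all genes passed it. Syn2 (chromosome 6, 115134902 to 115282626) was at 840, 617, 672 and 854 CPM in control and at 610, 544, 604 and 513 CPM in morphine libraries. All morphine libraries were below all control libraries, though control replicate 2 and morphine replicate 3 lay close together, and the log2 fold change was -0.39 (95% interval -0.67 to -0.12; adjusted P = 0.241 in edgeR). A model with the telencephalic score gave -0.48 and one with the choroid plexus score -0.30. Its second transcript, with 51.3% of the counts of the first, was at 378 ± 55.4 CPM in control and 294 ± 19.1 CPM in morphine libraries (SD, n = 4 each). Timp4, which lies on the opposite strand within Syn2 and shares exon sequence with it, was itself at 0.406 to 1.70 CPM. Syn1, whose exons overlap those of Araf, had a log2 fold change of 0.05 (95% interval -0.27 to 0.36), and Snap91, an adaptor of vesicle endocytosis that the naming rule also takes in, of -0.16 (-0.38 to 0.06).

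Sv2b was at 131, 154, 125 and 192 CPM in control and at 163, 256, 177 and 202 CPM in morphine libraries. The groups overlapped through control replicate 6, and the log2 fold change was 0.41 (95% interval 0.04 to 0.77; adjusted P = 0.351 in edgeR). With the telencephalic score in the model the sign turned, to -0.14, and with the choroid plexus score to -0.06. Sv2a, the most widely expressed of the 3, had a log2 fold change of 0.09 (95% interval -0.18 to 0.37) and Sv2c of 0.19 (-0.29 to 0.68). The telencephalic and the choroid plexus score gave -0.057 and -0.27 for Sv2a and 0.018 and -0.058 for Sv2c.

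The 21 SNAREs of other membranes include those of the endoplasmic reticulum, Golgi, endosomes and lysosomes, and also plasma membrane forms such as Stx3. Of the 21, 2 passed the unadjusted threshold in edgeR, against 12.1% of all genes. DESeq2 called 1 of them, against 2.65% of all genes. Vamp8, an endosomal and secretory SNARE of epithelial and blood cells, was at 0.256, 0.563, 0.622 and 1.68 CPM in control and at 1.83, 2.45, 1.92 and 2.38 CPM in morphine libraries, from 10 to 116 counts. All morphine libraries were above all control libraries, though control replicate 6 came close, and the log2 fold change was 1.47 (95% interval 0.51 to 2.42; adjusted P = 0.204 in edgeR and 0.0368 in DESeq2, within a range of 0.0308 to 1 over the alternatives). Without control replicate 6 edgeR called it, with a log2 fold change of 2.13 and an adjusted P of 0.0308. The choroid plexus sums were also higher in every morphine library, at 44.8, 85.9, 90.5 and 162 CPM in control and at 248, 420, 217 and 681 CPM in morphine libraries. Within the morphine group the order differed, with Vamp8 highest in replicate 4 and the choroid plexus sum in replicate 8. The telencephalic sum, like Vamp8, was lowest in control replicate 1 and highest in morphine replicate 4. A model with the choroid plexus score gave Vamp8 a log2 fold change of 0.18 and one with the telencephalic score 0.24. The part of these markers in the result was not tested.

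Stx6, a syntaxin of the trans-Golgi network and endosomes, had 70.7 ± 5.52 CPM in control and 84.6 ± 8.49 CPM in morphine libraries (SD, n = 4 each). The log2 fold change was 0.26 (95% interval 0.04 to 0.48; adjusted P = 0.327 in edgeR), and the groups overlapped. A model with the telencephalic score gave 0.018 and one with the choroid plexus score 0.14. The intervals of the other genes of this role included 0, with estimates from -0.16 upward among the 18 with a mean of 20 counts.

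Of the 9 other synaptotagmins, which include forms without calcium binding, Syt14 alone passed the unadjusted threshold, where 12.1% of all genes did. Syt14, one such form, was at 9.26, 9.57, 8.77 and 9.69 CPM in control and at 11.2, 10.02, 12.2 and 11.3 CPM in morphine libraries. The groups did not overlap but lay close, with a log2 fold change of 0.26 (95% interval 0.01 to 0.52; adjusted P = 0.396 in edgeR). A model with the telencephalic score gave 0.23 and one with the choroid plexus score 0.27. Of the 7 tomosyns and other Stxbp genes, Stxbp3a (now Stxbp3), which encodes the Munc18c of general exocytosis, was at 1.74, 2.50, 4.61 and 3.88 CPM in control and at 3.93, 4.84, 5.49 and 6.43 CPM in morphine libraries. The groups overlapped through control replicate 5, with a log2 fold change of 0.70 (95% interval 0.08 to 1.32; adjusted P = 0.345 in edgeR). A model with the choroid plexus score gave 0.066 and one with the telencephalic score 0.18.

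**Figure D4:**
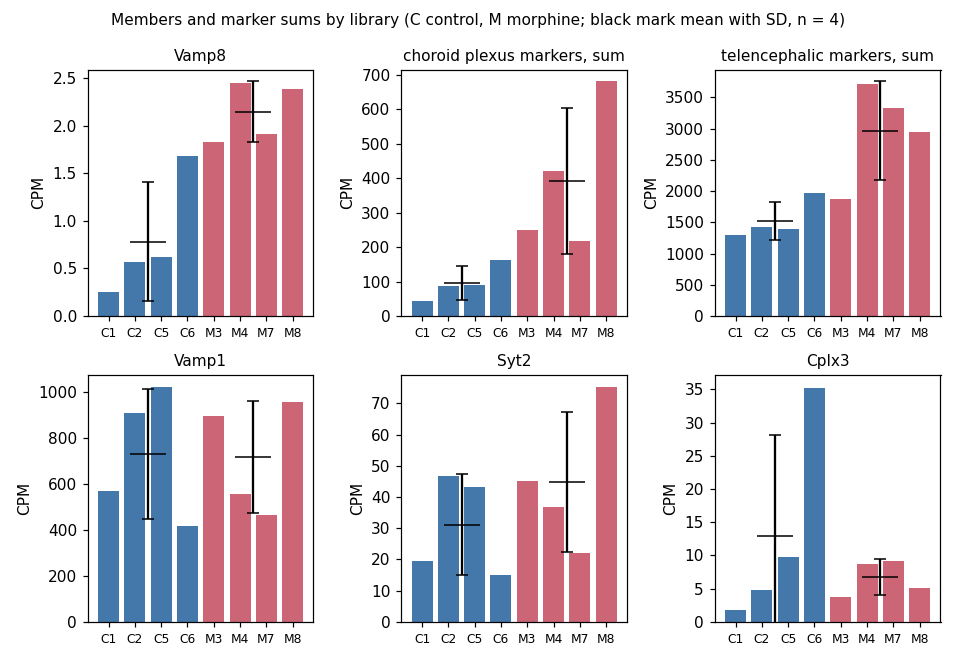
CPM per library (bars from 0, each panel with its own scale; C, control and M, morphine replicates) of Vamp8, Vamp1, Syt2 and Cplx3 and of the summed markers of choroid plexus and telencephalic pyramidal neurons, with the mean and SD of each group (n = 4) in black. The SD of Cplx3 in control reaches below 0 and is drawn to 0. Vamp8 and both marker sums are lowest in control replicate 1 and highest in a morphine library. Vamp1 and Syt2 peak in the same 4 libraries, and control replicate 6 stands apart for Cplx3.

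The sexes were compared in a model that also held condition. Of the 69 genes 0 were called, in edgeR as in DESeq2, against 1 gene of all (0.00528%) in edgeR and 21 (0.111%) in DESeq2. At an unadjusted threshold of 0.05, 2 of 69 genes passed, against 3.1% of all genes. These were Stxbp3a, higher in female libraries by a log2 difference of 0.72 (SE 0.20), and Cplx3, higher by 1.49 (SE 0.60), the latter with control replicate 6 as its highest library. Markers of oligodendrocytes, the cells that make myelin, passed an unadjusted threshold of 0.05 for sex in 8 of 8 genes, and 0 were called in edgeR. Their sums overlapped, at 772 to 1523 CPM in female and 121 to 814 CPM in male libraries, with control replicate 1 the lowest.

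The morphine difference itself was not shown to depend on sex. For the interaction 0 of 69 genes were called in edgeR or DESeq2, against 0.0% and 0.0211% of all genes, and 2 of 69 passed an unadjusted threshold of 0.05 (Cplx3 and Vamp3, against 1.72% of all genes). The difference of the differences, female minus male, was -2.59 on the log2 scale (SE 0.86) for Cplx3 and -0.67 (SE 0.29) for Vamp3, a SNARE of recycling endosomes. Rims3 was lower with morphine in the male and in the female libraries, at 362 to 441 against 250 to 255 CPM and at 348 to 392 against 231 to 283 CPM. These estimates rest on 2 libraries for each sex and condition, and control replicate 5, counted as female, held Y-linked RNA.

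The genes that work with the release machinery but lie outside the naming rule were set beside it in a pair of lists, 65 genes in all. Of 35 genes of the active zone and of priming, 1 was called in edgeR and 2 in DESeq2, against 0.195% and 2.65% of all genes. Baiap3, a relative of the Munc13 proteins, was at 196, 127, 126 and 165 CPM in control and at 53.8, 63.3, 83.1 and 57.1 CPM in morphine libraries. It fell by 1.25 on the log2 scale (SE 0.17; adjusted P = 0.021 in edgeR), to 0.419 of the control level, with no overlap between the groups. The call held in 5 of 8 leave-one-out fits and was lost without control replicate 1, morphine replicate 4 or morphine replicate 8, as it was with either marker score in the model, where the log2 fold change was -1.41 (telencephalic) and -0.99 (choroid plexus).

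The part of the lower midline thalamus markers in the lower Rims, Baiap3 and active zone values was not tested. In the active zone list 8 of 35 genes passed the unadjusted threshold, all of them lower with morphine, where 5.31% of all genes and 6.59% of those with a mean of 20 counts did so. They included Doc2a, a calcium sensor of spontaneous and asynchronous release, with 39.4 ± 4.84 CPM in control and 27.1 ± 4.05 CPM in morphine libraries and a log2 fold change of -0.54 (SE 0.13; adjusted P = 0.121 in edgeR, and -0.61 and -0.83 with the telencephalic and the choroid plexus score), which DESeq2 called. Bzrap1, which encodes a RIM-binding protein, had a log2 fold change of -0.36 (SE 0.11; adjusted P = 0.192 in edgeR), and of -0.58 and -0.53 with these scores. The median of the list was -0.11, with 11 genes above and 24 below 0. Baiap3 apart, none of these genes passed the adjusted threshold in edgeR. Of 30 genes of the vesicle membrane and of endocytosis 0 were called by edgeR or DESeq2, against 0.195% and 2.65% of all genes. The unadjusted threshold was passed by 7 of them (3 higher and 4 lower, against 6.79% and 5.31% of all genes), and the median was -0.03.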

How the data were processed

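The authors deposited raw counts of reads in 1 table, with a row for each of 24488 RefSeq transcripts of 18939 genes and a column for each of the 8 TRAP libraries. Its 8 columns match the labels, and 0 columns were without a sample. The submitters' processing notes name mm10 and DESeq2; the program that counted the reads is not given in the sources used here. The methods describe Salmon and tximport for a gene-level matrix, but this table counts shared reads on every transcript they fit, so the transcript with the most counts stood for its gene. This step was not part of the plan, which had assumed 1 count per gene. The libraries were made with a directional kit, and the counting is not stated to use the strand. Reads carry no molecular identifiers, so precision by depth covers counting error only.

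TMM scaling and the quasi-likelihood test of edgeR 4.0.16 were run in R 4.3.3 with condition in the model, as the methods fit condition without sex, over all genes with a count above 0, with Benjamini-Hochberg adjustment over all 18939 genes. A gene is called at an adjusted P value under 0.05. CPM was computed from the counts and the TMM-scaled library sizes, and marker scores are mean log2 CPM with a prior count of 2. Coordinates and transcript lengths came from GENCODE vM21 on GRCm38; lengths were found for 68 of the 69 genes. Alternatives were sex or a marker score in the model, upper-quartile and RLE factors, filterByExpr, DESeq2 1.42.0, the sum over transcripts, and each library left out. The scripts were tested on simulated data. Figures were drawn with matplotlib 3.10.9.

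The genes, roles, partner lists and marker lists were chosen with earlier results of these data known. Named were genes called, the 6 genes with the lowest P value in each direction with a mean of at least 20 counts, the core release genes, the 3 highest and 3 lowest per kilobase, and called partner genes. Others (Cplx3, Syt7, Syt9, Syt14, Vamp3, Stxbp3a by sex, Doc2a, Bzrap1 and the low genes) were singled out after their values were seen. Samples were grouped by the labels, and replicates are separate pools of mice. No batch is given. Values of some single genes are not reported here.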

Additional observations from a re-analysis of the deposited data

Results flagged for a closer look

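A pair of results had a library far from the 3 others of its group, by Dixon's criterion at the 95% level, which chance meets in about 1 in 20 groups; 44 groups of named genes were looked at. Rims1, a long RIM scaffold of the active zone, was lowest in control replicate 2, at 111 CPM against 136 to 140 CPM in the 3 other control libraries. Vamp2, synaptobrevin 2, was lowest in morphine replicate 8, at 2564 CPM against 2780 to 2796 CPM in the 3 other morphine libraries. The cause of neither was tested.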

How the results depend on the processing

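Of the 352 values of named genes under the alternatives, 329 kept their direction and their side of the threshold, 4 passed the threshold that the reported value missed (Rims3 with DESeq2 and with sex in the model, Vamp8 with DESeq2 and without control replicate 6) and 19 turned sign. The number of release genes called was 0 as reported, 2 with DESeq2 and 1 with sex in the model, and 0 to 1 with a library left out (1 without control replicate 6). Partner genes called numbered 1, against 2 with DESeq2, 0 with either marker score, and 0 to 1 with a library left out. All genes called numbered 37, against 502 with DESeq2, 110 with sex in the model, 22 with transcripts summed, 14 with filterByExpr, 0 with the choroid plexus score and 1 with the telencephalic one, and 0 to 77 with a library left out (0 without morphine replicate 4 or 8). Each model with a marker score has 1 residual degree of freedom less, the scores were higher in the morphine group, and the cause of a lost call was not tested. The median log2 fold change of the 69 genes stayed within -0.04 to 0.02, and no release gene was called by sex or in the interaction under any alternative run. With the choroid plexus score the sign turned for Rims2 (0.0048), Sv2a (-0.27), Sv2b (-0.060), Sv2c (-0.058) and Syt2 (-0.17), and with the telencephalic score for Sv2a (-0.057), Sv2b (-0.14), Unc13a (-0.10) and Vamp1 (0.87). With a library left out it turned for Snap25 (-0.027 to 0.12), Sv2c (-0.020 to 0.36), Syn1 (-0.038 to 0.17) and Vamp1 (-0.23 to 0.17), none of which was called. No paired analysis was possible because the control and morphine libraries share no replicate number. Depth limits the 6 genes with a mean under 20 counts.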

Other observations

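Variation between libraries of a group differed widely among the release genes with a mean of 20 counts. After Vamp2, the steadiest were Stx3, a syntaxin of apical membranes and ribbon synapses, with a coefficient of variation of 6.11%, and Stx18, of the endoplasmic reticulum, with 6.63%. Cplx3 with 112%, Syt2 with 51.4%, Vamp1 with 36.4% and Vamp8 with 33.8% were among the most variable by this measure, the SD pooled over both groups divided by the mean of all libraries.

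Snap47, a SNARE of the cytosol and of intracellular membranes, was the highest of the genes outside the core release roles, at 280 ± 29.4 CPM per kb in control, and its log2 fold change was -0.14 (95% interval -0.36 to 0.09, n = 4 each). Jmjd4 lies on the opposite strand and shares exon sequence with it, at 68.3 to 83.1 CPM. Of the 3 neuronal Munc13 genes, Unc13a held 48.0% to 63.0% of their RNA per kilobase, Unc13c, the form known best from cerebellar granule cells, 25.7% to 44.5%, and Unc13b 7.54% to 12.6%. With the longest transcripts the control means were 64.6% for Unc13a (55.0% with the matched ones), 31.8% (35.8%) for Unc13c and 3.67% (9.15%) for Unc13b. These genes were chosen after their values were seen.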
